A study of Mus musculus with 20 samples.

Results

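CpG methylation was described at 3 genes for transcription factors of blood progenitors, Gata2, Meis1 and Runx1, in sorted mouse promyelocytes. The members were all CpG cytosines covered by at least 10 reads in at least 4 of 5 libraries of each of 4 groups, inside 3 fixed intervals of the mm9 genome. These intervals were chr6:88130001-88165000 for Gata2, chr11:18770001-18930000 for Meis1 and chr16:92590001-92840000 for Runx1. They held 1141 of the 1730534 autosomal cytosines that met the coverage rule, with 424 at Gata2, 347 at Meis1 and 370 at Runx1. Fixed windows of 1 kb with at least 3 such cytosines numbered 68 of 127276, with 15, 22 and 31 at the 3 genes. A further 2, 6 and 15 windows held only 1 or 2 cytosines, which were described singly. The measure throughout is the methylation level, the percent of reads over a cytosine or a window that carry C after bisulfite conversion, and a difference is given in percentage points between group means.

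The assay was enhanced reduced representation bisulfite sequencing (ERRBS), which reads CpG-rich restriction fragments. The 20 libraries came from mice of the FVB/n background and formed 4 groups of 5: wild-type (WT) CD34+ early promyelocytes, WT CD34- late promyelocytes, and the same fractions from mice that carry the PML-RARa transgene, the fusion protein of acute promyelocytic leukaemia. All libraries are named below by the number, 1 to 20, that opens their title in the labels. The labels give no promoter for the transgene, no age, and do not state which libraries stem from which mouse, so p-values measure the spread between these libraries, which may in part be technical. Identity as early or late promyelocytes rests on the labels, since methylation alone was measured. Libraries listed 1718859 to 2213704 cytosines, and the median cytosine had 32 to 150 reads. Mean coverage of the members ranged over libraries from 61.4 to 192 reads at Gata2, from 45.7 to 152 at Meis1 and from 61.0 to 168 at Runx1.

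GATA2 is a zinc finger factor that maintains haematopoietic stem and progenitor cells and is shut off as granulocytes mature. MEIS1 is a homeodomain partner of HOX and PBX proteins in stem cells and in several leukaemias. RUNX1 is the DNA-binding subunit of the core-binding factor, needed for the onset of definitive blood formation and for myeloid maturation, and is transcribed from a distal and a CpG-rich proximal promoter. Promoters rich in CpG are mostly free of methylation in all cell types, also where the gene is silent, while CpGs between genes and in gene bodies are mostly methylated.

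The sequences before the RefSeq starts of the 3 genes are shown first, because their CpGs carried almost no methylation in any group. RefSeq gave 5 starts with 300 bases each in a table of the GRCm38.p6 build. The mm9 position of each was found by laying its CpG pattern on the cytosines that the files list, without conversion of coordinates. Of these, 4 found a place: 28 of 28 and 34 of 34 listed cytosines matched a CpG at the 2 Gata2 starts, 14 of 15 at Meis1 and 42 of 42 at the CpG-rich start of Runx1, called the proximal start below. The other Runx1 start, with only 2 CpGs, was not placed and its promoter was not analysed here. Below are the 250 bases that precede each placed start, 5′ to 3′ on the strand of the gene, with capitals marking CpGs at which a member cytosine was measured. The last capital C of Gata2 start 2 belongs to a CpG that continues past the printed end and is not counted below.
Gata2 start 1: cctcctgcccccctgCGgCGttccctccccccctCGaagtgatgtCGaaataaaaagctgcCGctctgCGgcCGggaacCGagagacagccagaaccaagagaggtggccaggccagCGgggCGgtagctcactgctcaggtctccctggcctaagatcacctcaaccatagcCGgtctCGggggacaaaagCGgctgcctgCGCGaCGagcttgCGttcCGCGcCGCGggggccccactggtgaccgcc
Gata2 start 2: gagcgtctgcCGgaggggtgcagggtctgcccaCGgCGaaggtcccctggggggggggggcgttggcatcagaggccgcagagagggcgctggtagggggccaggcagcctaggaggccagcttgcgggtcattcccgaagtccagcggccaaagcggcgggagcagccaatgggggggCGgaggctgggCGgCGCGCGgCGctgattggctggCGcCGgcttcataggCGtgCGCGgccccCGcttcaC
Meis1 start: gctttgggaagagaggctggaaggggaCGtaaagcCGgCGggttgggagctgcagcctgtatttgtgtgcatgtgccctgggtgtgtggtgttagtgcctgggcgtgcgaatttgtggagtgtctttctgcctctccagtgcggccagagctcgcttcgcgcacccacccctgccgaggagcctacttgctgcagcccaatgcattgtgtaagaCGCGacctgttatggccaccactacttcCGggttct
Runx1 proximal start: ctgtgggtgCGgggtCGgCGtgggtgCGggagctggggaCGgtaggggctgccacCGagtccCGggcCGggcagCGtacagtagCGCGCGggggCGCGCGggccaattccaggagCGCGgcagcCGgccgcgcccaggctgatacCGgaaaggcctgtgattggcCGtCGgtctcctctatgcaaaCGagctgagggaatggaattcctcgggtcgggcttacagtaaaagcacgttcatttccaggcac
In mm9 these stretches lie at chr6:88143635-88143884 and chr6:88148408-88148657 on the plus strand for Gata2, and at chr11:18918973-18919222 and chr16:92697575-92697824 on the minus strand for Meis1 and Runx1. Measured CpGs made up 21 of 22 at Gata2 start 1, 15 of 24 at Gata2 start 2, 6 of 13 at Meis1 and 22 of 27 at Runx1. Exon, intron and UTR annotation of the mm9 build was not used here.

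All promoter cytosines were close to unmethylated in all groups. Over the 250 bases before each start, none of the 25, 21, 7 and 33 member cytosines at Gata2 start 1, Gata2 start 2, Meis1 and Runx1 had a mean over the libraries above 5%. The highest mean of a single cytosine was 0.55% at Gata2 start 1, 1.04% at Gata2 start 2, 0.85% at Meis1 and 0.60% at Runx1. At Gata2 start 1 the promoter level was 0.088% ± 0.11 in WT CD34+, 0.34% ± 0.24 in WT CD34-, 0.12% ± 0.17 in PML-RARa CD34+ and 0.083% ± 0.091 in PML-RARa CD34- cells (SD, n = 5 each). At Runx1 the same 4 levels were 0.043% ± 0.043, 0.18% ± 0.13, 0.063% ± 0.053 and 0.030% ± 0.032. Averaged over a promoter, the highest level of any library was 0.87%, in library 12 at Meis1. The highest value of any promoter cytosine in any library was 13.7%, before Gata2 start 2.

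**Figure D1:**
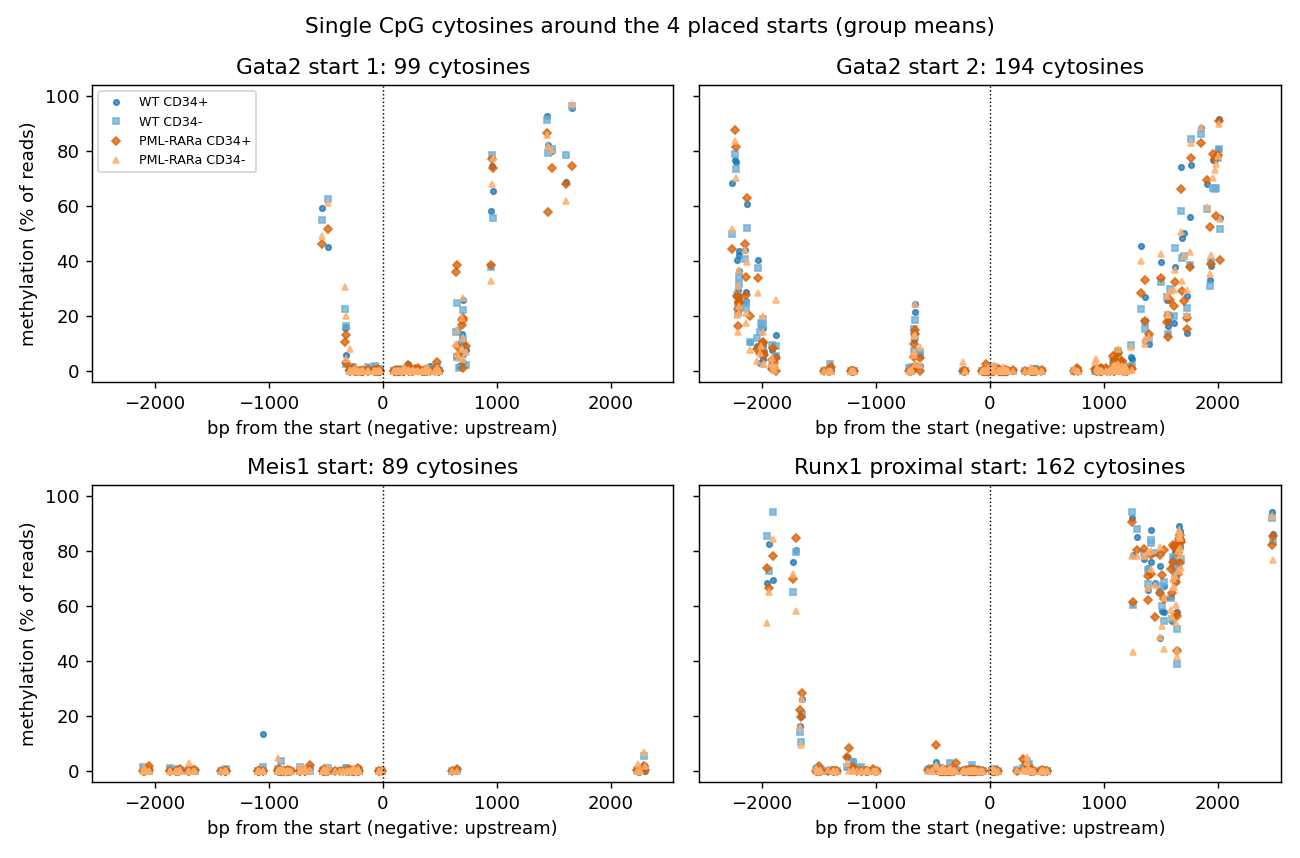
Methylation of single member cytosines (percent of reads, group means of up to 5 libraries) within 2500 bp of the 4 placed starts, against distance in bp, negative upstream of that start. Levels near 0 surround each start, rise on both sides of both Gata2 starts and of the Runx1 proximal start, and stay low on both sides of the Meis1 start.

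The unmethylated stretch around each start ended differently at the 3 genes. At the Runx1 proximal start, 92 cytosines in a row upstream and 27 downstream had means below 20%. Upstream, the last of them, 1529 bp from the start, stood at 0.78% and the next measured cytosine, at 1651 bp, at 25.4%. Downstream the level was 0.059% at 503 bp and 88.4% at the next measured cytosine, 1248 bp from the start, with no covered CpG between them. At Gata2 start 2 the low stretch ran over 98 cytosines downstream to 1245 bp (1.99%), and the next cytosine at 1328 bp had 33.5%. Upstream of Meis1 all 125 member cytosines out to 8505 bp were below 20%, with a highest mean of 3.63%, so no upper border was reached inside the interval. Group means placed the Runx1 borders at the same 2 pairs of cytosines in all 4 groups. At Gata2 start 1 the last cytosine below 20% upstream of the start was at 328 bp in WT CD34+ and PML-RARa CD34+ means, at 326 bp in WT CD34- and at 321 bp in PML-RARa CD34- means. Downstream of this start it was at 697, 650, 494 and 697 bp in WT CD34+, WT CD34-, PML-RARa CD34+ and PML-RARa CD34- means. Upstream of Gata2 start 2 the low stretch ended at 617 bp in WT CD34+ and PML-RARa CD34- means, where the next cytosine, at 655 bp, had 24.4% and 24.6%. In WT CD34- and PML-RARa CD34+ means that cytosine was below 20% and the stretch ran on to 2016 bp. Downstream of Meis1 the last cytosine below 20% was at 8558 bp in both WT means, 8546 bp in PML-RARa CD34+ and 11161 bp in PML-RARa CD34- means. These group borders are descriptions with no test.

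The 3 loci differed in how much of them was methylated. Windows were classed by their mean over the 20 libraries as low (below 20%), middle (20% to 80%) or high (above 80%). Gata2 had 8 low, 1 middle and 6 high windows, Meis1 18, 1 and 3, and Runx1 5, 7 and 19. Together 45.6% of the 68 windows were low, 13.2% middle and 41.2% high, against 23.9%, 17.9% and 58.2% of all 127276 windows. Among single cytosines, 67.1% of members and 60.4% of all were low.

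At Gata2, low and high windows alternated over short distances. The window 4.4 kb upstream of start 1 (chr6:88139001-88140000, 45 cytosines) had the lowest mean of the locus, 0.28%, and the next windows towards the gene stood at 83.2% and 93.5%. The 2 windows over start 1 had 5.17% and 4.89%, followed by a methylated island of 5 cytosines at chr6:88145001-88146000 with 81.1%. From chr6:88146001 to 88150000 the 4 windows around start 2 ranged from 0.62% to 18.6%. The window with the most members, chr6:88149001-88150000 with 63 cytosines, was at 1.47%. Beyond it the level was 46.1% at chr6:88150001-88151000 and 17.3% at chr6:88152001-88153000, and the last 3 windows, out to chr6:88164001-88165000, ranged from 89.2% to 96.7%.

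Meis1 was low at both ends of its interval. Around the start, 10 windows with 177 cytosines spanned chr11:18910001-18928000, from 9.0 kb upstream to 9.0 kb downstream of the start, and their means ranged from 0.13% to 6.24%. The other low stretch, chr11:18770001-18780000, lay 139 to 149 kb downstream and held 7 windows with 135 cytosines at 0.24% to 2.45%. It included the window with the most members of the locus, chr11:18771001-18772000, with 58 cytosines at 0.49%. Between them, high levels of 87.8%, 93.3% and 93.9% were measured in 3 windows. Next to the window at 87.8% (chr11:18856001-18857000, 3 cytosines), the adjoining chr11:18857001-18858000 with 4 cytosines was at 15.4%. The middle class held only chr11:18907001-18908000, 8 cytosines 11.5 kb downstream of the start, at 23.4%.

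Runx1 was mostly methylated. Around its proximal start only 2 windows with 113 cytosines were low, chr16:92697001-92699000, at 0.29% and 0.93%. The first of them held 85 member cytosines, the most of any member window. On the upstream side chr16:92699001-92700000 followed at 23.1%, and on the downstream side the 2 windows of chr16:92695001-92697000 at 77.7% and 71.4%. Away from this start 3 more low windows of few CpGs were found upstream: 0.96% with 4 cytosines 86.9 kb away, 0.25% with 3 cytosines 104.9 kb away and 0.056% with 5 cytosines 127.9 kb away (chr16:92825001-92826000). The highest level of the locus, 96.8%, was that of chr16:92606001-92607000, 28 cytosines 91.1 kb downstream of the proximal start.

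**Figure D2:**
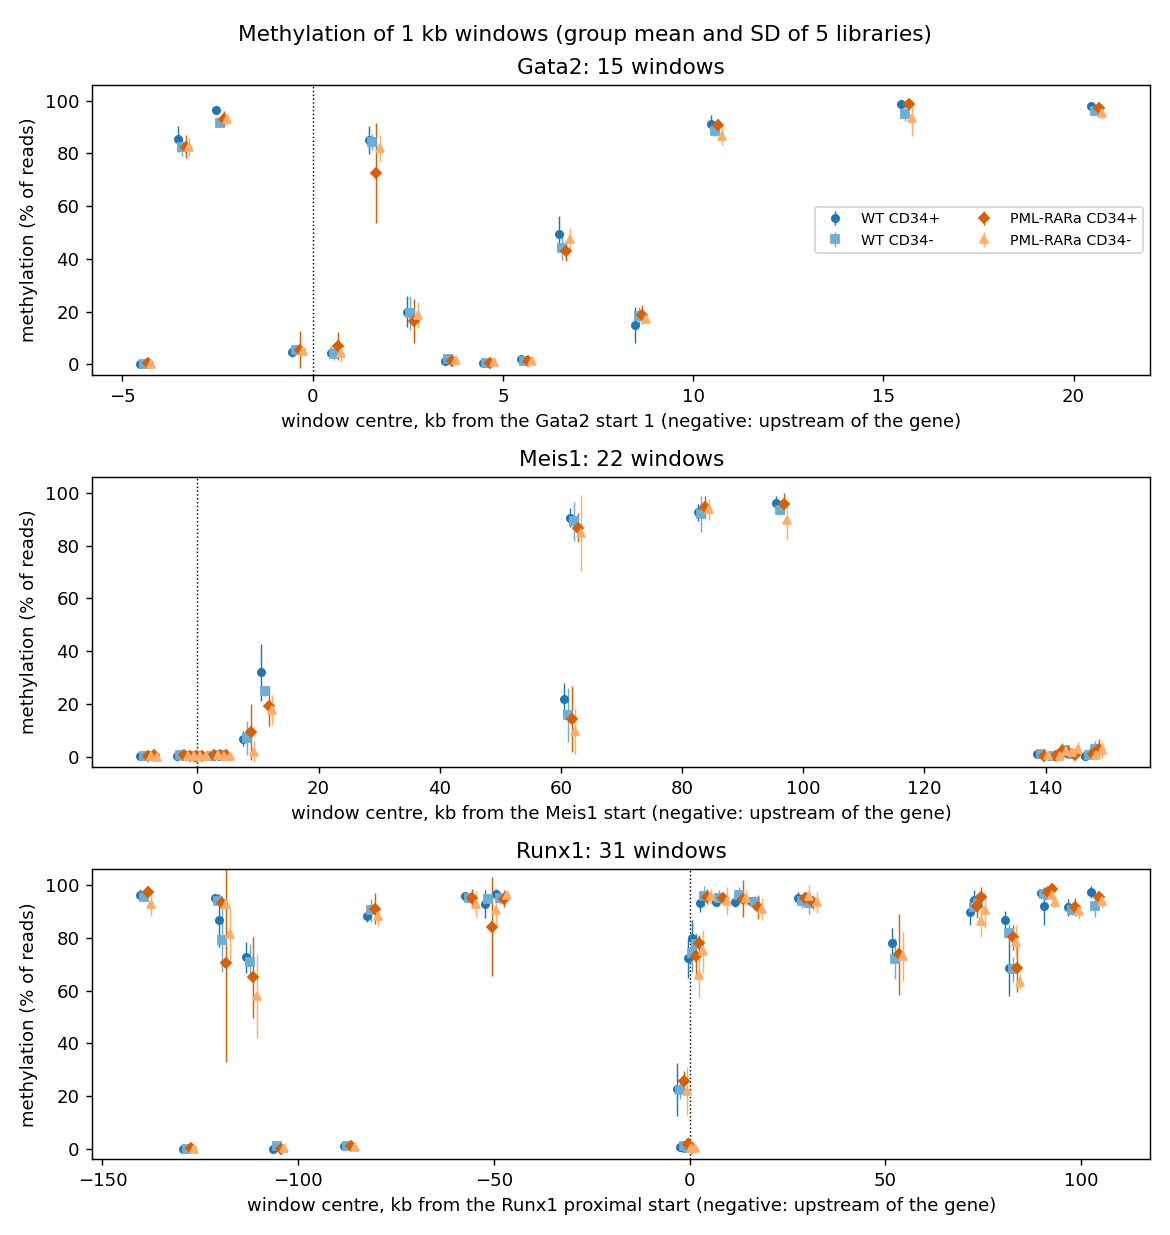
Methylation of the 68 windows (percent of reads, group mean with SD over the libraries that cover the window, up to 5) against distance in kb from Gata2 start 1, the Meis1 start and the Runx1 proximal start, negative upstream; symbols of the 4 groups are set slightly apart sideways. The 4 groups lie together at nearly all windows, and the widest error bars, in PML-RARa CD34+ cells at Runx1, come from a window in which library 11 is at 4.55%.

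The 2 strands gave like levels, and libraries of a group spread least where levels were low. Where both strands of a CpG were measured (90, 54 and 62 CpGs at Gata2, Meis1 and Runx1), the median absolute difference between strands was 0.30, 0.23 and 0.51 points. The within-group SD of a window had a median of 0.56 points in low, 3.30 in high and 7.57 in middle windows. The largest SDs were those of Runx1 windows of 3 cytosines each, 21.0 points at chr16:92816001-92817000 and 12.0 at chr16:92809001-92810000. At the latter, WT CD34+ libraries 7, 9, 15 and 17 had 67.1%, 79.6%, 68.4% and 75.3%, while library 1 had no cytosine with enough reads.

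The mean level of each locus differed little between groups. Over the 309 Gata2 cytosines covered in all 20 libraries the mean was 19.7% ± 0.38 in WT CD34+, 18.9% ± 0.37 in WT CD34-, 18.8% ± 1.16 in PML-RARa CD34+ and 18.6% ± 0.62 in PML-RARa CD34- cells. For the 198 Meis1 cytosines these 4 means were 7.66% ± 0.54, 7.40% ± 0.25, 7.01% ± 0.31 and 6.90% ± 0.27. For the 231 Runx1 cytosines they were 46.7% ± 0.33, 46.4% ± 0.49, 45.9% ± 0.69 and 45.3% ± 0.64. Differences were -0.77 to -0.11 points between fractions of a genotype and -1.16 to -0.31 points between genotypes in a fraction. With the reads of an interval pooled, 3 of these differences changed sign, to 0.46 points between genotypes in CD34- cells at Gata2, and to 0.19 and 0.28 points between PML-RARa fractions at Gata2 and Runx1, so the order of the groups depended on how the mean was taken. These are descriptions with no test, as the intervals were chosen. At Meis1, library 1 had 8.54% and the other WT CD34+ libraries 7.05% to 7.64%.

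Whether PML-RARa changes methylation was asked in each fraction against WT. A window or cytosine was called at an adjusted p below 0.05 (quasi-binomial model over the whole genome, Benjamini-Hochberg) and a difference of at least 10 points. In CD34+ cells 0 of 68 windows were called, where 0.00314% of all windows were, and limma called 0 of 68, as it did 0% of all windows. Unadjusted p-values were below 0.05 at 6 of the 68 windows, or 8.82%, against 4.19% of all windows. Of 1141 cytosines 0 were called, where 5.78e-05% of all cytosines were, and 84, or 7.36%, had an unadjusted p below 0.05 against 5.34% of all. Of the windows 34 were higher and 33 lower in PML-RARa, with a median difference of 0.0030 points at members and -0.058 over all windows, and the smallest adjusted p of a member window was 1.

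The Meis1 window chr11:18907001-18908000, 11.5 kb downstream of the start, had the smallest p of its gene in this comparison. Its WT CD34+ libraries 1, 7, 9, 15 and 17 had 50.4%, 22.1%, 32.0%, 27.8% and 27.5%, and PML-RARa CD34+ libraries 3, 5, 11, 13 and 19 had 11.2%, 10.5%, 26.3%, 22.6% and 24.4%. The groups overlapped, with library 1 high and libraries 3 and 5 low. The difference was -12.97 points (32.0% ± 10.9 against 19.0% ± 7.56, SD, n = 5 each), with an adjusted p of 1, and was -8.35 points without library 1. In the late fraction its level was 25.0% ± 2.16 in WT and 17.6% ± 5.75 in PML-RARa cells.

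At Gata2 the smallest window p fell on the methylated island of 5 cytosines between the 2 starts, chr6:88145001-88146000. Library 5 of PML-RARa CD34+ had 39.0% there, from 305 reads, while libraries 3, 11, 13 and 19 had 80.6%, 84.0%, 75.6% and 83.6% and the WT CD34+ libraries 79.5% to 92.5%. The difference of -12.62 points (adjusted p = 1) became -4.23 points when library 5 was left out. At Runx1, the window chr16:92615001-92616000 with 12 cytosines had 86.7% ± 3.33 in WT and 80.2% ± 4.74 in PML-RARa CD34+ cells (-6.53 points, adjusted p = 1). Inside it, the cytosine chr16:92615012 had the smallest p of all members in this comparison: WT CD34+ libraries had 93.1%, 89.2%, 96.1%, 88.6% and 94.4%, and the 4 PML-RARa CD34+ libraries that covered it 80.7%, 92.3%, 75.4% and 73.8%. Only library 5, at 92.3%, lay inside the WT range, and the adjusted p was 0.633.

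In CD34- cells 0 of 68 windows were called between genotypes (0.000786% of all windows), and limma called 0 of 68 (0% of all). Unadjusted p-values below 0.05 were seen at 3 of 68 windows, or 4.41%, against 7.79% of all. Cytosines called numbered 0 of 1141 (5.78e-05% of all), and 112, or 9.82%, had an unadjusted p below 0.05 against 8.44% of all. Members were lower in PML-RARa cells at 50 of 68 windows. The windows share the same libraries, and this count was not tested. The median difference was -0.31 points against -0.011 over all windows, and the lowest and highest differences were -12.69 and 3.51 points. The lowest was at the variable Runx1 window of 3 cytosines chr16:92809001-92810000, where WT CD34- libraries had 62.4% to 81.0% and PML-RARa CD34- libraries 36.5% to 80.2%. At chr16:92624001-92625000, the Runx1 window with the smallest p, the level was 91.7% ± 1.47 in WT and 86.3% ± 6.15 in PML-RARa CD34- cells (-5.33 points, adjusted p = 0.603, and -2.86 points without library 6). The Runx1 cytosine chr16:92689321 was read as fully methylated, 100%, in all 5 PML-RARa CD34- libraries, while the WT CD34- libraries had 80.3%, 88.5%, 92.9%, 100% and 93.5% (adjusted p = 0.279).

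Among promoter cytosines, chr6:88148418 before Gata2 start 2 had the smallest p of its gene between genotypes in CD34- cells and between fractions in PML-RARa cells. In PML-RARa CD34- libraries 4, 6, 12, 14 and 20 it had 5.30%, 8.65%, 0%, 1.86% and 1.10%. All other 15 libraries were between 0% and 1.42%. The difference was 3.16 points against WT (adjusted p = 0.323) and 3.27 points against the early PML-RARa fraction (adjusted p = 0.257), and library 12 at 0% lay with the low groups. Over the alternative fits these adjusted p-values ranged from 0.191 to 0.776 and from 0.0329 to 0.739.

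**Figure D3:**
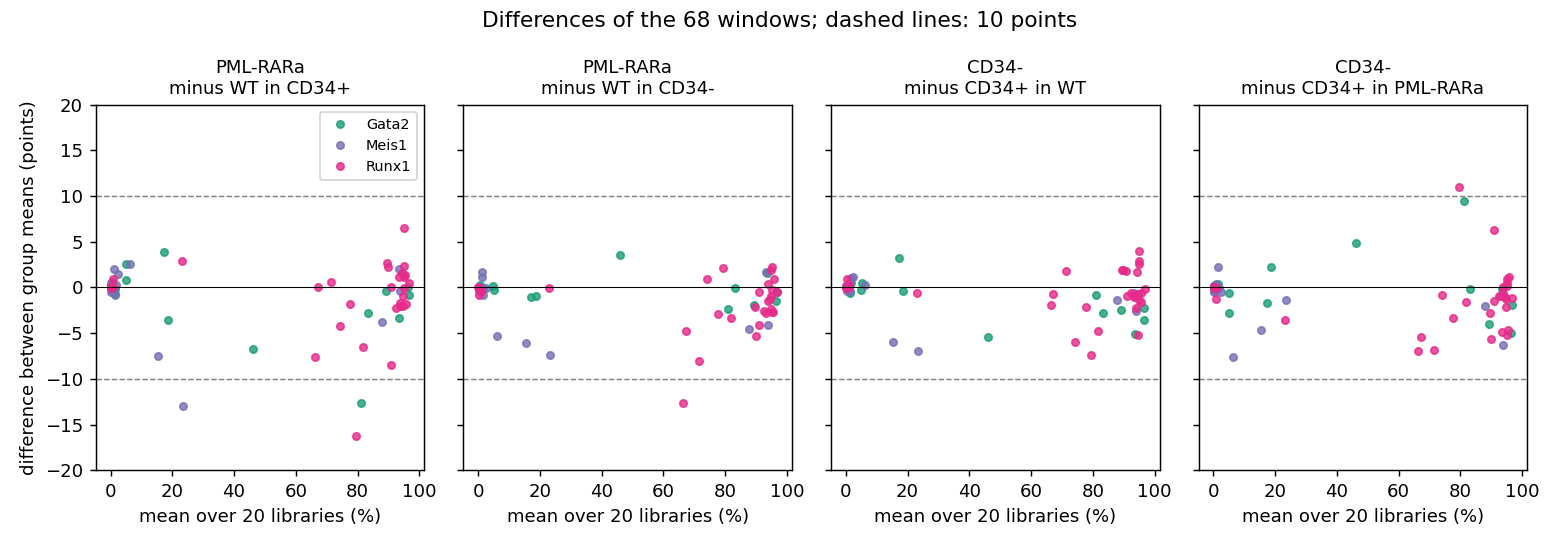
Difference between group means (percentage points) of each of the 68 windows in the 4 comparisons, against the mean of the window over the 20 libraries (percent of reads); dashed lines mark 10 points. Windows with levels near 0% have differences near 0, and the windows past 10 points hold 3 to 8 cytosines each, and none was called.

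The change with maturation, CD34- against CD34+, was next compared in WT cells. Genome-wide this was the comparison with the most calls, 0.427% of all windows and 0.0429% of all cytosines. At the 3 genes 0 of 68 windows and 0 of 1141 cytosines were called. At such low shares, so few members could all go uncalled without differing from the genome. By limma 0 of 68 windows and 0.13% of all windows were called. Unadjusted p-values below 0.05 were found at 5 windows, or 7.35%, against 6.21% of all, and at 77 cytosines, or 6.75%, against 5.83% of all. The median window difference was -0.23 points at members and -0.37 over all windows, and no member window differed by 10 points or more, with a range of -7.44 to 4.00 points.

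The smallest adjusted p of any member window, 0.0912, belonged to the Gata2 window chr6:88141001-88142000, 7 cytosines 2.4 kb upstream of start 1. WT CD34+ libraries 1, 7, 9, 15 and 17 had 95.6%, 96.4%, 96.2%, 97.9% and 96.5%, and WT CD34- libraries 2, 8, 10, 16 and 18 had 93.5%, 91.0%, 91.9%, 91.2% and 89.4%. The 2 groups did not overlap, and every late library lay below every early one. The mean was 96.5% ± 0.87 against 91.4% ± 1.46 (SD, n = 5 each), a difference of -5.13 points, under the minimum of 10 points. Over the alternative fits its adjusted p ranged from 0.0189 to 0.378. In PML-RARa cells the window stood at 93.2% ± 3.06 and 93.0% ± 2.53, a difference of -0.18 points, and the interaction had an adjusted p of 0.964. Within the window the cytosine chr6:88141236 had 97.8% to 100% in WT CD34+ and 85.5% to 93.8% in WT CD34- libraries (-8.85 points, adjusted p = 0.43). Over the alternative fits the adjusted p of this cytosine ranged from 0.0204 to 0.68.

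At Runx1, the cytosine chr16:92599690, 97.9 kb downstream of the proximal start, had the smallest adjusted p of all member cytosines, 0.0713. WT CD34+ libraries 1, 7, 9, 15 and 17 had 69.4%, 89.2%, 91.2%, 73.9% and 85.7%, and all 5 WT CD34- libraries had 100%. The groups did not overlap, and the difference was 18.11 points (81.9% ± 9.67 against 100%, n = 5 each). In PML-RARa cells 4 of 5 CD34+ libraries and 4 of 5 CD34- libraries were at 100%, the exceptions being library 13 at 90.6% and library 14 at 96.4%. Leaving out library 13 gave an adjusted p of 0.0359 and leaving out library 14 one of 0.0474, which would make it a call, and over all alternative fits the adjusted p ranged from 0.0195 to 0.386. Its window of 13 cytosines, chr16:92599001-92600000, had a mean of 91.0% over the libraries and was not among those with the smallest p. That window did not share the rise: it was at 91.5% ± 3.24 in WT CD34+ and 90.6% ± 1.90 in WT CD34- cells, a difference of -0.93 points.

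A pair of Runx1 cytosines 21.4 kb downstream of the proximal start, chr16:92676187 and chr16:92676225, was looked at after its values had been seen. They are the only members of their window and so fell below the minimum of 3 cytosines. With reads of both summed, WT CD34+ libraries 1, 7, 9, 15 and 17 had 18.6%, 11.2%, 5.17%, 21.9% and 19.8%, and WT CD34- libraries 2, 8, 10, 16 and 18 had 36.2%, 46.2%, 39.2%, 60.2% and 59.8%. All late WT libraries lay above all early ones, with 83 to 174 reads in each late library and 86 to 137 in each early one. The means were 15.3% ± 6.96 and 48.3% ± 11.3 (SD, n = 5 each), a difference of 32.97 points that stayed between 29.99 and 36.01 with any 1 of these libraries left out. When windows of 1 or 2 cytosines were also tested, this was the only member window called, with an adjusted p of 0.0113, where 0.323% of all 212970 such windows were called. Tested singly, the cytosines had adjusted p-values of 0.319 and 0.101.

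In PML-RARa cells the same pair had 29.3%, 48.6%, 21.4%, 30.9% and 30.0% in CD34+ libraries 3, 5, 11, 13 and 19, and 45.3%, 48.4%, 35.7%, 65.9% and 38.3% in CD34- libraries 4, 6, 12, 14 and 20. The early PML-RARa libraries, from 28 to 200 reads each, overlapped with both WT CD34+ and the late groups. Their mean of 32.0% ± 9.99 lay 16.70 points above WT CD34+ (adjusted p = 0.997), and the late mean of 46.7% ± 11.9 differed from that of WT CD34- by -1.58 points. The difference with maturation was 14.69 points in PML-RARa cells (adjusted p = 0.498), and the interaction, -18.28 points, had an adjusted p of 0.795 and did not pass the test.

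**Figure D4:**
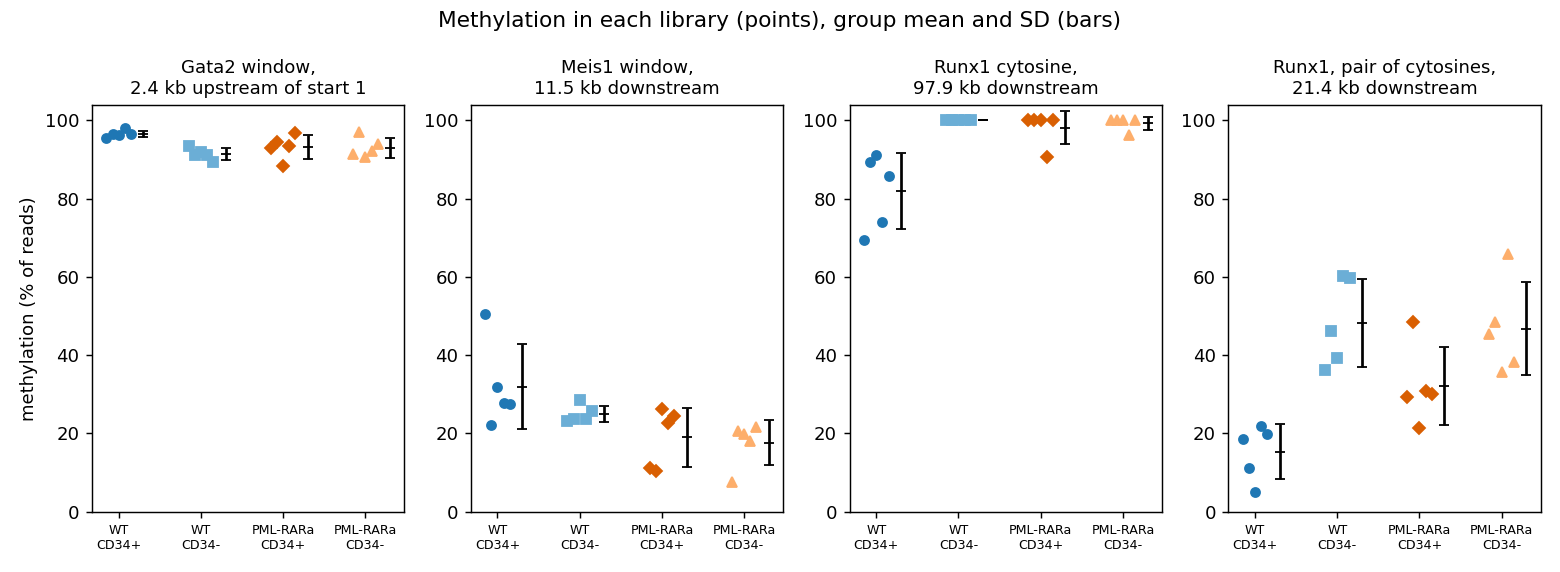
Methylation (percent of reads) in each library at 4 sites, by group, with group mean and SD: the Gata2 window 2.4 kb upstream of start 1, the Meis1 window 11.5 kb downstream, the Runx1 cytosine 97.9 kb downstream and the pair of Runx1 cytosines 21.4 kb downstream. WT CD34+ and WT CD34- libraries do not overlap at the Gata2 window and at both Runx1 sites, which were picked for small p-values in this same comparison. How often such groups do not overlap over all windows and cytosines was not counted.

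Other Runx1 and Meis1 windows with the smallest p in WT maturation showed smaller steps. At chr16:92593001-92594000 WT CD34+ cells had 97.4% ± 2.29 and WT CD34- cells 92.2% ± 4.44 (-5.24 points, adjusted p = 0.538). At chr11:18775001-18776000, in the low stretch far downstream of the Meis1 start, the levels were 1.23% ± 0.63 and 2.32% ± 1.21 (1.09 points, adjusted p = 0.682, and 0.55 points without library 8). The cytosine chr11:18771563 in the same stretch had 0% in all WT CD34+ libraries and 10.0%, 3.28%, 3.73%, 0% and 0% in WT CD34- libraries 2, 8, 10, 16 and 18 (adjusted p = 0.477).

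Maturation in PML-RARa cells gave 0 called windows of 68 (0.0558% of all) and 0 called cytosines of 1141 (0.00196% of all), and limma called 0 of 68 windows (0.0212% of all). Unadjusted p-values were below 0.05 at 8 windows, or 11.8%, against 9.42% of all, and at 110 cytosines, or 9.64%, against 8.53% of all. Late cells were lower at 48 of 68 windows, a count that was not tested, with a median of -0.43 points against -0.12 over all windows. This comparison and that of the genotypes in CD34- cells share the PML-RARa CD34- libraries. The smallest adjusted p, 0.285, was at the last Gata2 window, chr6:88164001-88165000, with 97.3% ± 1.17 in early and 95.4% ± 2.50 in late PML-RARa cells and 98.1% ± 1.11 and 95.9% ± 1.11 in WT cells. Its PML-RARa difference of -1.89 points was -2.86 without library 4. At Runx1, chr16:92605001-92606000 had 98.7% ± 1.82 in early and 93.4% ± 1.88 in late PML-RARa cells (-5.25 points, adjusted p = 0.425), with library 14 lowest at 90.2%. In WT cells the same window was at 92.1% ± 7.13 and 96.1% ± 1.49, with library 1 at 79.9% and the other early libraries at 92.6% to 98.0%. The interaction at this window, -9.25 points, had an adjusted p of 0.964.

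The interaction of genotype and fraction, the difference between the 2 maturation changes, was called at 0 of 68 windows (0% of all) by the model and at 0 of 68 (0% of all) by limma. At cytosines it was called at 0 of 1141 (0.00162% of all). Unadjusted p-values below 0.05 were found at 4 windows, or 5.88%, against 5.16% of all, and at 79 cytosines, or 6.92%, against 5.53% of all. The Gata2 cytosine chr6:88141051, 2.8 kb upstream of start 1, was at 99.4% ± 1.42 and 89.7% ± 3.43 in early and late WT cells and at 87.4% ± 11.5 and 95.7% ± 3.95 in early and late PML-RARa cells. Its interaction of 17.92 points had an adjusted p of 0.756, and the early PML-RARa mean included library 11 at 68.5% beside 88.6% to 100% in the others.

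Some libraries took extreme values at single cytosines. Exact values of 0% or 100% made up 78.3% to 81.5% of the covered members in libraries 1, 6 and 11, against 50.7% to 73.1% in the other 17. Coverage was lowest in libraries 1, 5 and 11, with medians of 36, 35 and 32 reads, while library 6 had a median of 115. Of the 5 member cytosines with the largest differences between groups, which were picked after their values were seen, the Runx1 cytosine chr16:92699527 was at 0% in library 1 (43 reads) and at 79.3% to 93.5% in the other WT CD34+ libraries. Its largest difference, -31.46 points between genotypes in CD34- cells (adjusted p = 0.384), did not involve library 1. The WT CD34- libraries had 70.4% to 99.7% there and the PML-RARa CD34- libraries 26.9% to 83.8%. The Meis1 cytosine chr11:18907649, inside the window 11.5 kb downstream of the start, was at 100% in library 1 (63 reads) and at 26.5% to 42.3% in the others of the group. The Runx1 cytosine chr16:92676225 belongs to the pair described above. The Gata2 cytosine chr6:88144529, 644 bp downstream of start 1, had 0%, 10.4%, 11.6%, 0% and 6% in WT CD34+ libraries 1, 7, 9, 15 and 17, and 13.6%, 65.4%, 37.7%, 18.5% and 44.7% in PML-RARa CD34+ libraries 3, 5, 11, 13 and 19. These groups did not overlap, and the difference of 30.38 points had an adjusted p of 0.848. The late libraries ranged from 7.10% to 27.7% in WT and from 0% to 31.4% in PML-RARa cells. The Runx1 cytosine chr16:92696083, 1491 bp downstream of the proximal start, had 4.17%, 64.4%, 56.7%, 81.7% and 33.9% in the WT CD34+ libraries, with library 1 lowest. PML-RARa CD34+ libraries 3, 5, 13 and 19 had 62.5%, 100%, 88.5% and 62.7% and library 11 did not cover it, and the difference of 30.26 points had an adjusted p of 0.88. Libraries 1, 5, 6, 11 and 12 were taken as libraries of high scatter from a fixed list that was not derived here. Without these 5 libraries, 0 member windows and 0 member cytosines were called in all 5 comparisons.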

How the data were processed

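ERRBS was measured in 20 libraries of sorted promyelocytes, grouped by the genotype and fraction in the labels. The authors used CASAVA 1.8.2, Bismark and mm9, per the submitters' processing notes. Per the file headers, the deposited tables give for each CpG cytosine and strand the coverage as a count of reads and the percent of reads with C and with T. No deposited cytosine had fewer than 10 reads, and replicates were not pooled.

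Methylated reads were recovered as coverage times percent C, rounded to whole reads. Cytosines on the 19 autosomes with at least 10 reads in 4 of 5 libraries of each group were kept and summed over fixed 1 kb windows of at least 3. A quasi-binomial logistic model of the 4 groups was fitted per window and per cytosine. Its overdispersion (median 9.12 in windows and 1.74 at cytosines) was moderated as in limma's squeezeVar with 3.45 and 0.49 prior degrees of freedom. The F test of the deviance was two-sided, with Benjamini-Hochberg adjustment over all features. A library below 10 reads at a cytosine was left out there. limma 3.58.1 (R 4.3.3) on logit levels with 1 read added was the alternative test for windows, and Python 3.11.15 with numpy 2.4.6, scipy 1.17.1 and pandas 2.3.3 did the rest. The scripts were tested on simulated data. Libraries within a group differed by more than counting noise (chi-square per window 4.35 to 25.1), so no 2 held the same reads; whether any share a mouse was not tested. Reads carry no molecular identifiers, so depth covers counting error only.

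The members and the lists were chosen with earlier results of these data known. Features were named by a written rule: called members, the smallest p per gene and comparison, the windows with most cytosines, lowest or highest mean and largest within-group SD, and promoter windows. Features named outside it are marked as chosen after their values were seen. Alternatives were a coverage minimum of 20, cytosines in all 20 libraries, windows of at least 1 cytosine or shifted by 500 bp, and limma. Flowcell, or the number after the # sign in the titles, was added as a factor for windows only. Further alternatives were fits of 2 groups, no minimum difference, strands summed and libraries left out. A block of adjacent title numbers and unweighted window means were added after seeing the data.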

Additional observations from a re-analysis of the deposited data

Results flagged for a closer look

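In each group of 5 libraries, the highest or lowest value was singled out where its gap to the nearest other value, relative to the range of the group, exceeded Dixon's 95% criterion. Of 155 groups checked at the named windows and cytosines, 29 had such a value. Chance flags about 1 in 20 groups of normally distributed values, but that rate does not apply to this count. The sites were named for small p-values or large spread, and in several groups 4 of 5 libraries were at exactly 0% or 100%. By group, 11 fell in PML-RARa CD34+, 9 in PML-RARa CD34-, 5 in WT CD34- and 4 in WT CD34+ libraries. Their part in the comparisons was examined by leaving out each library in turn.

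The largest gaps were in PML-RARa CD34+ libraries. Library 11 had 4.55% at the Runx1 window chr16:92816001-92817000, from 66 reads, while the other 4 had 78.8% to 95.2%. At Gata2, library 5 had 39.0% on the methylated island chr6:88145001-88146000 (others 75.6% to 84.0%) and 17.9% at the window over start 1, chr6:88143001-88144000 (others 0.62% to 4.35%). Over the 32 cytosines of the latter window covered in all libraries, the unweighted mean of library 5 was 5.5%. In PML-RARa CD34- cells, library 4 had 7.58% at the Meis1 window chr11:18907001-18908000 (others 18.0% to 21.7%), and library 14 had 90.2% at the Runx1 window chr16:92605001-92606000 (others 93.8% to 95.1%). Library 6 had 6.79% at the window over Gata2 start 1 (others 4.28% to 4.84%) and 1.62% at the window over Gata2 start 2 (others 0.47% to 0.78%).

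At highly methylated sites the other singled-out values were small steps. The Runx1 cytosine chr16:92599690 had 90.6% in library 13 and 96.4% in library 14, with 100% in the others of each group. The Gata2 cytosine chr6:88141051 had 96.8% in library 7 and 100% in the other WT CD34+ libraries. The last Gata2 window, chr6:88164001-88165000, had 97.8% in library 10 against 95.1% to 95.8% in the other WT CD34- libraries, and the Runx1 window chr16:92606001-92607000 had 98.0% in library 9 against 96.6% to 96.7% in the other WT CD34+ libraries.

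All remaining values were at unmethylated sites and at or below 4.97%. At single Meis1 cytosines, library 10 had 4.97% at chr11:18927382, library 19 had 4.06% at chr11:18771532, library 13 had 3.01% at chr11:18915958 and library 14 had 0.88% at chr11:18771563, and the other libraries of these groups were at 0%, apart from 1 at up to 1.19% beside library 10. The Gata2 promoter cytosine chr6:88148418 had 0.56% in library 3 and 0% in the others of its group. Among Meis1 windows, chr11:18775001-18776000 had 4.48% in library 8 and 2.80% in library 11, chr11:18771001-18772000 had 2.21% in library 5, and chr11:18926001-18927000 had 2.44% in library 19 and 0.22% in library 7. The window chr11:18914001-18915000 had 1.31% in library 18 and 0.33% in library 4, chr11:18918001-18919000 had 1.29% in library 12 and 0.32% in library 13, and chr11:18919001-18920000 had 0.55% in library 18. At the Runx1 window chr16:92825001-92826000, library 12 had 0.36% and library 15 had 0.25%.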

How the results depend on the processing

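Flowcell and the number after the # sign were added as factors for windows only, so counts of called cytosines were not checked against them. Flowcells were spread unevenly over the groups: BD11BFACXX held PML-RARa CD34- libraries 6, 14 and 20 but no PML-RARa CD34+ library. The count of called members was 0 in all 5 comparisons under every alternative run without a block, with 3 exceptions, all in WT maturation. With windows of at least 1 cytosine, 1 member window was called, the pair of Runx1 cytosines. With each library left out in turn, called cytosines ranged from 0 to 1, and the 1 was chr16:92599690 without PML-RARa CD34+ library 13 or PML-RARa CD34- library 14. At an unchanged minimum of 10 points these fits differ only in the libraries that set the shared overdispersion. The Gata2 window chr6:88141001-88142000 passed an adjusted p of 0.05 with only the 2 groups fitted (0.0189), but its difference stayed under 10 points. Over all alternative fits, the block included, 2 Gata2 cytosines also fell below 0.05 with differences under 10 points. Their smallest adjusted p-values were 0.0204 at chr6:88141236 (WT maturation) and 0.0329 at chr6:88148418 (PML-RARa maturation).

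Differences between interval means were small and moved by more than the spread between libraries in 12 cases. With reads of the interval pooled they became 0.46 (genotypes in CD34-) and -0.39 points (WT maturation) at Gata2, -0.18 and -0.78 (genotypes in CD34+ and CD34-) and -0.69 (PML-RARa maturation) at Meis1, and -2.64 (genotypes in CD34+), -1.09 and 0.28 (WT and PML-RARa maturation) at Runx1. With a coverage minimum of 20 they became -0.35 (WT maturation) at Gata2, and -1.13 (genotypes in CD34-) and -0.54 (PML-RARa maturation) at Meis1. With every member cytosine the Runx1 difference of genotypes in CD34+ cells was -1.46 points. The cause was not tested.

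Groups share no replicate numbers, but title numbers run in adjacent couples (1 and 2, 3 and 4) of 1 genotype and both fractions, which the labels do not call pairs. Both libraries of a couple also carry the same number after the # sign in their titles, and the labels do not say what it means. Deviations from the group means over 114462 windows correlated at -0.033 to 0.152 within the 10 couples, above 0.1 in 3 of 10. Among the 5 libraries of the other fraction of their genotype, 9 of 20 libraries correlated best with their own partner. A random pick among 5 would hit the own partner in 1 of 5 cases. Whether the couples share a mouse was not tested. A replicate block of these couples, added after seeing the data, left 0 of 68 windows called in both maturation comparisons and the interaction. Of all windows it called 0.355% in WT maturation, 0.0487% in PML-RARa maturation and 0% in the interaction. With this block the Gata2 window chr6:88141001-88142000 had an adjusted p of 0.0531 and the Runx1 window chr16:92605001-92606000 one of 0.347. With the replicate block 1 of 1141 cytosines was called in WT maturation (chr16:92599690, adjusted p = 0.0195), where 0.0563% of all cytosines were. In PML-RARa maturation 4 of 1141 were called (chr11:18774129, chr11:18822647, chr16:92605990 and chr16:92836732), against 0.202% of all. The interaction gave 2 of 1141 (chr11:18822647 and chr16:92836732), against 0.00884% of all. Over all cytosines the block called 974, 3489 and 153 against 742, 34 and 28 without it, and on simulated reads without differences it gave too many small p-values at single cytosines. Depth limits single cytosines, which needed only 10 reads per library, and differences of less than 10 points were not called by rule. No gene annotation of mm9 was used here, and promoters were placed by CpG pattern only.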

Other observations

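Runx1 held 3 low windows of few CpGs away from its proximal start. In the farthest of them, chr16:92825001-92826000, the means were 0.049% ± 0.11 in WT CD34+, 0.026% ± 0.036 in WT CD34-, 0.078% ± 0.072 in PML-RARa CD34+ and 0.071% ± 0.16 in PML-RARa CD34- cells (SD, n = 5 each). At Meis1, the adjoining windows chr11:18856001-18857000 and chr11:18857001-18858000 stood at 87.8% and 15.4%, and the latter had the largest within-group SD of its gene, 9.60 points. In its 4 groups it was at 21.8% ± 5.91, 15.8% ± 10.2, 14.3% ± 12.4 and 9.71% ± 8.63, in the order above.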
